A study of Graphilbum sp. with 6 samples.

Results

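The vesicle traffic and secretory pathway genes of Graphilbum sp., a wood-colonizing ascomycete of the order Ophiostomatales, were examined in hyphae with and without the pine wilt nematode. They were 93 assembled features of 4613 whose best database hit lay in Sporothrix, Grosmannia, Ophiostoma or Esteya, within a table of 26694 features. Members were taken by words in the best-hit description (vesicle, vesicular, Golgi, SNARE, syntaxin, coatomer, exocyst, clathrin, vacuolar, endosome, autophagy, endoplasmic reticulum, signal recognition, or Sec with a number), leaving out kinases, proteases, peptidases and GTPases. No measured value entered the word rule, but the list was chosen with earlier results of these data known. The best hit was in Sporothrix for 48 members, in Grosmannia for 28 and in Ophiostoma for 17.

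RNA came from hyphae cultured for 5 days at 28 °C on potato dextrose agar and rinsed with phosphate-buffered saline. In all, 3 libraries, which the series text calls wild-type, were controls, and the other 3 came from mycelium kept for 24 h with about 300 Bursaphelenchus xylophilus, the pine wilt nematode, which feeds on fungi and on pine. The labels name no strain or isolate, so the 6 libraries share an unnamed Graphilbum background. The series text calls the replicates biological without saying whether they were separate cultures, so p-values measure the spread between these libraries, which may be technical.

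Secreted and membrane proteins of fungi enter the endoplasmic reticulum (ER) through a protein channel, leave it in COPII-coated vesicles, are modified in the Golgi and are carried to the hyphal tip, the plasma membrane or the vacuole. Tethers such as the exocyst hold a vesicle at its target, and SNARE proteins fuse the membranes. In filamentous fungi this traffic feeds tip growth and the release of digestive enzymes, while endosomes, the vacuole and autophagy take up and break down cell material.

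Levels were compared as rescaled TPM, that is, TPM (a length-scaled share of transcripts) divided in each library by the median ratio over the 4613 class features. This was done because the class held 68.5% to 70.0% of deposited TPM in the controls and 28.7% to 39.4% in the nematode libraries. TPM are shares, so a lower class share does not by itself show less hyphal RNA. In bulk RNA, fewer hyphal cells, less RNA per cell and more RNA from outside the class cannot be told apart. Control replicate 3 stood apart from the other controls: 25% and 29.2% of the 4568 class features tested differed by more than 1.5 times between it and control replicates 1 and 2, against 3.46% between those 2 and 4.86% to 6.26% between nematode libraries. The members gave 23.7%, 24.7% and 2.15% for the same 3 control pairs. Without it, 16 of the 91 members still tested changed the sign of their log2 fold change (834 of 4552 in the class). Values without this library are given beside some role groups and members only. Those shown with all libraries alone may also depend on it.

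None of the 93 members changed between the groups at an adjusted p under 0.05 (limma, log2(rescaled TPM + 1), Benjamini-Hochberg over the 4568 class features tested). Over the whole class the same test called 30 features, or 0.657%. At an unadjusted p under 0.05, 11 members were higher and 2 lower with nematodes (11.8% and 2.15%), against 7.07% and 3.74% of the class. The smallest adjusted p of a member was 0.0735, for Sec62. All 93 members passed the filter on low values.

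Like those of the class, the members' log2 fold changes were small and tightly spread. Their median was 0.071, against -0.027 over the class, and the quartiles were -0.11 and 0.19 (class, -0.16 and 0.12). The lowest was -0.90 and the highest 0.80, both in fragments of 1 autophagy cluster at a few rescaled TPM. In 83 of the 93 members (89.2%) the 95% interval of the log2 fold change lay wholly within 1 of 0, which excludes a 2-fold change in either direction, and in 61 it excluded a 1.5-fold change. The first share was 85.7% over the class. Of the 10 members whose interval reached a 2-fold change, 8 were autophagy features.

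Libraries of the 2 groups did not overlap in 20 members that were higher with nematodes (21.5%) and 4 that were lower (4.30%), against 10.5% and 7.79% of the class. These shares, like the median, describe the list and were not tested. The higher ones included all of the ER group, 4 of 6 in the COPII group and 2 of 3 in the ER entry group, as the plot of log2 fold changes by role shows. Of log2 fold changes above 0 there were 55 (59.1%; class, 44.8%). That number was 59 with TMM or quantile scaling of the class, and 74 when each library was divided by the class total, which itself moved the median of all class features to 0.11.

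**Figure D1:**
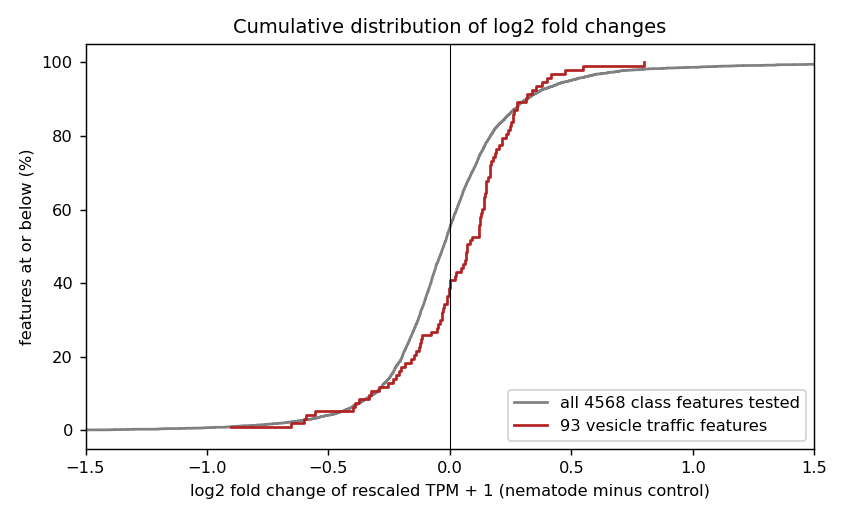
Cumulative share of features (y axis, %) against the log2 fold change of rescaled TPM + 1, nematode minus control (x axis), for the 4568 class features tested (grey) and the 93 members (red). The members' curve crosses its middle at 0.071 and the class curve at -0.027; class features beyond 1.5 on either side are cut off.

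**Figure D2:**
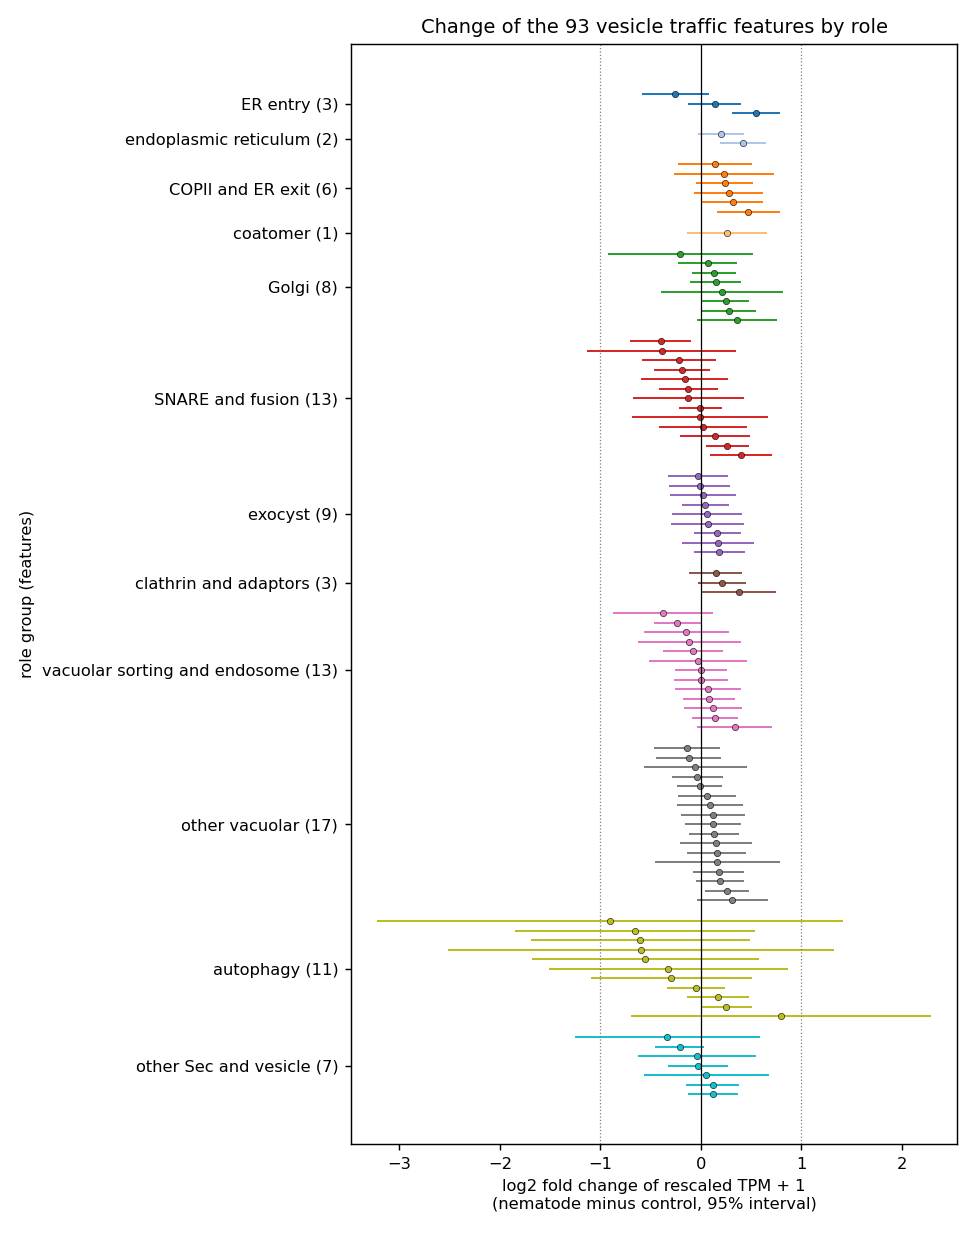
Log2 fold change of each member (dot) with its 95% interval from limma (line), 3 control and 3 nematode libraries, by role group, with the number of features in brackets. Dotted lines mark a 2-fold change, and the intervals are widest in the autophagy group.

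Without control replicate 3, the test called 629 of 4552 class features (13.8%: 7.67% higher, 6.15% lower) and 10 of the 91 members that could be tested (11%: 8.79% higher, 2.20% lower). The 8 higher were Sec62, ER vesicle protein 25, a COPII-coated vesicle protein, tvp23, a Golgi membrane protein, an ER to Golgi transport protein, clathrin heavy chain and a syntaxin. The 2 lower were Sec17 and a vacuolar protein sorting-associated protein. In this fit the members' median log2 fold change was 0.14, with 69 above 0, against a class median of 0.0046. Omission of any of the other 5 libraries called 0 members.

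The features that carry proteins into the ER were led by Sec62, a membrane protein that in yeast works beside the Sec61 channel to bring finished proteins into the ER. Sec62 (TRINITY_DN4142_c0_g1) had 136, 142 and 127 rescaled TPM in the controls (replicates 1, 2 and 3, the order kept throughout) and 189, 211 and 194 with nematodes. All nematode libraries were above all controls, and the control spread was small. Its log2 fold change was 0.55 ± 0.095 SE (95% interval 0.32 to 0.77; limma adjusted p = 0.0735), the highest value above 0 among members with means over 10 rescaled TPM. The adjusted p was 0.0129 without control replicate 3 and 0.0471 with scaling by the class total, and ranged from 0.0129 to 0.409 over 22 alternative settings.

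The signal recognition particle, which binds the leader of a new protein on the ribosome and docks it at the ER, had 2 features among the members. SRP19 (TRINITY_DN18649_c0_g1), a subunit that binds the particle's RNA, had 286, 291 and 227 rescaled TPM in the controls and 209, 211 and 253 with nematodes. Control replicate 3 lay within the nematode range, so the groups overlapped (log2 fold change -0.25 ± 0.14 SE, limma adjusted p = 0.579). Without that library the log2 fold change was -0.36 (limma adjusted p = 0.0566, within 0.0566 to 0.966 over the alternatives). SRP54 (TRINITY_DN7089_c0_g1), the subunit that binds the leader, had 89.0, 87.9 and 73.5 in the controls and 92.5, 92.4 and 89.9 with nematodes. The groups did not overlap but were close, with a log2 fold change of 0.14 (95% interval -0.11 to 0.39). The 3 ER entry features thus spanned log2 fold changes of -0.25 to 0.55, or -0.36 to 0.51 without control replicate 3.

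ER vesicle protein 25 (TRINITY_DN2242_c0_g1) bears the name of a yeast p24 family member that cycles between ER and Golgi in coated vesicles. It had 242, 252 and 225 rescaled TPM in the controls and 329, 321 and 311 with nematodes. The nematode libraries were all higher, a log2 fold change of 0.42 ± 0.092 SE (limma adjusted p = 0.145). Without control replicate 3 the adjusted p was 0.0239, within a range of 0.0239 to 0.577 over the alternatives. A Ca2+ transporting ATPase of the sarcoplasmic/endoplasmic reticulum type (TRINITY_DN1252_c1_g1), a class of pumps that fill the ER with calcium, had 102, 107 and 96.4 in the controls and 112, 122.6 and 116 with nematodes. Its groups did not overlap either, with a log2 fold change of 0.20 (95% interval -0.017 to 0.42).

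COPII coats vesicles leaving the ER, and all 6 features of its group had log2 fold changes above 0, from 0.14 to 0.47. Their median was 0.26 (limma, none adjusted p under 0.05, 2 at an unadjusted p under 0.05). Those 2 are among 3 features described as proteins or membrane proteins of COPII-coated vesicles, not as coat subunits. A COPII-coated vesicle protein (TRINITY_DN2996_c0_g2) had 237, 227 and 179 rescaled TPM in the controls and 291, 308 and 289 with nematodes. Control replicate 3 was the lowest library, and the groups did not overlap. The log2 fold change was 0.47 ± 0.13 SE (limma adjusted p = 0.224); without control replicate 3 it was 0.36 (adjusted p = 0.0284; 0.0284 to 0.666 over the alternatives). A second feature of that description and assembly number (TRINITY_DN2996_c1_g1) had 468, 429 and 365 in the controls and 558, 504 and 505 with nematodes (log2 fold change 0.32 ± 0.12 SE, limma adjusted p = 0.432). The COPII-coated vesicle membrane protein TRINITY_DN3112_c1_g2 had 181, 176 and 131 in controls and 188, 196 and 204 with nematodes, again with control replicate 3 lowest. The other 3, of which 2 are described as Sec23 or Sec24 proteins (the inner coat that picks cargo) and 1 only as a COPII coat protein, had means of 41.0 to 92.6 rescaled TPM. The Sec23/Sec24 family protein (TRINITY_DN4809_c0_g1) did not overlap between groups, at 85.3, 83.8 and 84.8 in the controls and 88.0, 114 and 99.2 with nematodes, whereas SEC24 (TRINITY_DN7166_c0_g1) overlapped, at 67.6, 61.5 and 87.4 in controls and 73.9, 85.9 and 77.2 with nematodes.

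**Figure D3:**
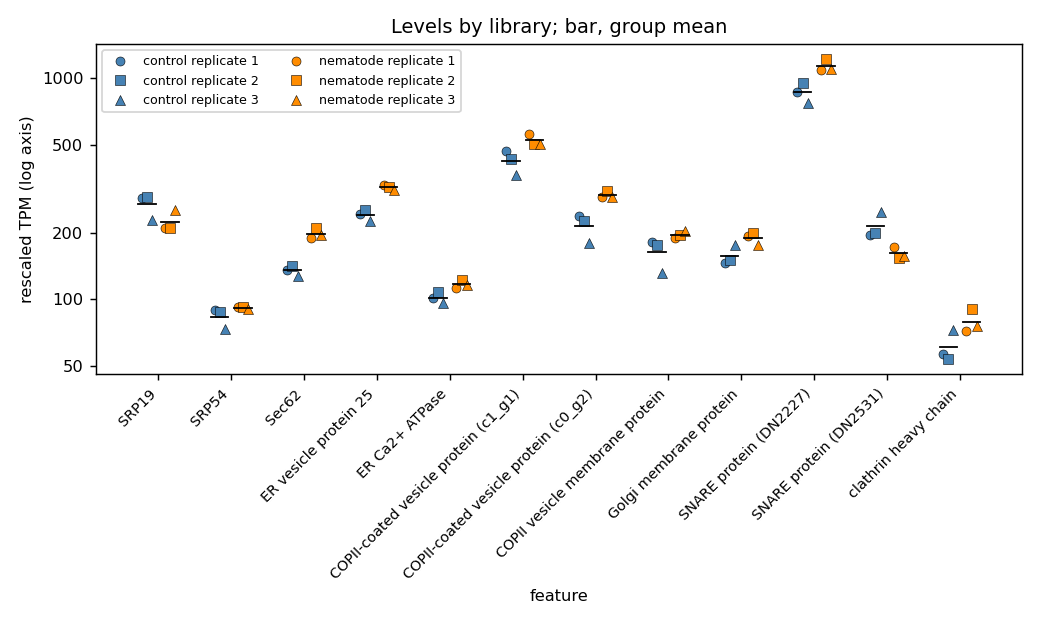
Rescaled TPM (y axis, log scale) of 12 members in each library: controls in blue, nematode libraries in orange, replicate 1 as circles, 2 as squares and 3 as triangles, with bars at the group means (n = 3). Sec62 and ER vesicle protein 25 show nematode libraries all above the controls, whereas SRP19 overlaps and the SNARE protein DN2531 is lower.

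The COPI coat, which returns material from the Golgi to the ER, was represented by 2 features. Coatomer subunit alpha (TRINITY_DN1427_c2_g1) had 81.8, 73.8 and 101 rescaled TPM in the controls and 87.5, 119 and 101 with nematodes. The groups overlapped (log2 fold change 0.26, 95% interval -0.12 to 0.65). A COPI vesicle coat subunit (TRINITY_DN4663_c0_g1) was more abundant, at 434, 448 and 403 in the controls and 439, 487 and 473 with nematodes, and its log2 fold change was 0.12 (95% interval -0.11 to 0.36).

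Golgi features had a median log2 fold change of 0.18, with 7 of 8 above 0 (limma, none adjusted p under 0.05, 2 at an unadjusted p under 0.05). A Golgi membrane protein (TRINITY_DN2212_c0_g3) had 145, 149.8 and 175 rescaled TPM in the controls and 194, 200.2 and 175 with nematodes. The highest control and the lowest nematode library were equal to the digits shown (log2 fold change 0.28 ± 0.11 SE, limma adjusted p = 0.456; 0.0349 without control replicate 3 and 0.0349 to 0.864 over the alternatives). Tvp23 (TRINITY_DN5055_c1_g1), in yeast a membrane protein of Golgi vesicles, had 62.4, 61.3 and 87.9 in the controls and 79.8, 95.7 and 93.1 with nematodes. Here control replicate 3 lay among the nematode libraries, and its omission moved the log2 fold change from 0.36 to 0.53 and the adjusted p from 0.505 to 0.0216 (0.0216 to 0.894 over the alternatives). Tvp15 (TRINITY_DN4862_c0_g1), another yeast Golgi vesicle protein, had 150.2 ± 11.9 (SD, n = 3) in the controls and 166 ± 9.94 (SD, n = 3) with nematodes, and its groups overlapped. An ER to Golgi transport protein (TRINITY_DN5914_c0_g1), named after its values were seen, had 17.8, 15.3 and 30.7 in controls and 21.8, 25.8 and 23.6 with nematodes. Its control replicate 3 was above every nematode library, and in its absence the log2 fold change was 0.50 (adjusted p = 0.0433) in place of 0.21 (adjusted p = 0.807; 0.0433 to 0.997 over the alternatives). The tethering complex of the Golgi known as COG, which holds returning vesicles, had 3 features by name, all of them given here: subunit 2 (TRINITY_DN6302_c0_g1) at 0.25, the Cog4-like subunit (TRINITY_DN20192_c0_g1) at 0.069 and a complex component (TRINITY_DN2273_c0_g1) at -0.20 in log2 fold change. The last was the one Golgi feature below 0, and its control replicate 3 was 1.93 times the mean of the other 2 controls. Without that library its log2 fold change was 0.11.

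SNARE and fusion features, 13 in all, were split in sign: 4 had log2 fold changes above 0 and 9 below, with a median of -0.12. That lean rested on control replicate 3: without it 7 were above 0 and 6 below, with a median of 0.0026. The most abundant member of the whole list was a SNARE protein (TRINITY_DN2227_c0_g1), at 865, 952 and 770.1 rescaled TPM in the controls and 1089, 1219 and 1096 with nematodes. Every nematode library was above every control, a log2 fold change of 0.40 ± 0.13 SE (limma adjusted p = 0.313). Another SNARE protein (TRINITY_DN2531_c0_g1) differed the other way by the same size, with 194, 199 and 248 in the controls and 173, 154 and 156 with nematodes (log2 fold change -0.40 ± 0.12 SE, limma adjusted p = 0.304). Neither description says which SNARE each is. A syntaxin of the 1B/2/3 type (TRINITY_DN7755_c0_g2), the kind of SNARE that sits on the plasma membrane, had 263, 255 and 263 in controls and 304, 319 and 317 with nematodes. Its replicates were close and its groups did not overlap (log2 fold change 0.26 ± 0.085 SE, limma adjusted p = 0.320; 0.0449 without control replicate 3 and 0.0449 to 0.796 over the alternatives). Sec17 (TRINITY_DN2483_c0_g1), which with Sec18 takes used SNARE complexes apart, had 495, 482 and 404 in the controls and 405, 409 and 394 with nematodes. Control replicate 3 lay inside the nematode range, and in its absence the log2 fold change was -0.27 (adjusted p = 0.0490; 0.0490 to 0.946 over the alternatives), against -0.19 (adjusted p = 0.619) with all libraries. The 3 features described as v-SNAREs, the SNAREs carried by the vesicle, had log2 fold changes of -0.13 (TRINITY_DN5296_c2_g2), 0.024 (TRINITY_DN468_c0_g1) and -0.22 (TRINITY_DN165_c0_g1), all with overlapping groups. A vesicular fusion factor (TRINITY_DN2590_c0_g1) was level, with 226 ± 5.44 (SD, n = 3) rescaled TPM in the controls and 225 ± 6.25 (SD, n = 3) with nematodes. A SNARE complex subunit (TRINITY_DN7902_c1_g1) was the most scattered of the group, with 143, 150.3 and 322 in the controls and 154, 156 and 127 with nematodes, and its 95% interval of -1.12 to 0.34 reached a 2-fold change.

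The exocyst, the tether of secretory vesicles at the plasma membrane, differed little. Its 9 features had log2 fold changes between -0.031 and 0.19, and for 9 of 9 the 95% interval excluded a 1.5-fold change. Their median was 0.065, and 0.15 without control replicate 3. Exo84 (TRINITY_DN829_c0_g1) had 97.6 ± 10.2 (SD, n = 3) rescaled TPM in the controls and 95.5 ± 9.79 (SD, n = 3) with nematodes. Sec5 (TRINITY_DN7952_c0_g1) had 87.3 ± 15.1 (SD, n = 3) among controls and 87.9 ± 1.07 (SD, n = 3) among nematode libraries. Both are exocyst subunits in yeast, and their group means differed by less than 1 control SD. An exocyst component with no number (TRINITY_DN261_c0_g1) had 89.1, 89.0 and 76.0 in the controls and 93.5, 95.1 and 100.2 with nematodes, without overlap (log2 fold change 0.19, 95% interval -0.057 to 0.43). Mean levels of the 9 lay between 29.5 and 96.6 rescaled TPM, a narrow range beside that of the SNARE group (14.4 to 999).

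Clathrin, which coats vesicles budding from the Golgi and the plasma membrane, had 3 features with log2 fold changes of 0.15 to 0.38. Clathrin heavy chain (TRINITY_DN21535_c0_g1) had 56.4, 53.6 and 72.5 rescaled TPM in the controls and 71.9, 90.2 and 75.4 with nematodes. Control replicate 3 reached the lowest nematode library, and its omission moved the log2 fold change from 0.38 (adjusted p = 0.441) to 0.52 (adjusted p = 0.0304; 0.0304 to 0.868 over the alternatives). Clathrin light chain (TRINITY_DN3742_c2_g1) was more abundant than heavy chain per length, with 286, 303 and 252 in controls and 328, 301 and 302 with nematodes, and its groups overlapped. A clathrin-coated vesicle protein (TRINITY_DN416_c0_g2) had 71.6, 70.3 and 65.8 in the controls and 77.7, 86.7 and 77.3 with nematodes (log2 fold change 0.21, 95% interval -0.013 to 0.44).

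Of 13 features for vacuolar sorting and endosomes, 5 had log2 fold changes above 0 and 8 below, with a median of -0.00086. Without control replicate 3 the counts turned to 9 above and 4 below, with a median of 0.061. An endosomal cargo receptor (TRINITY_DN6443_c0_g1) had 246, 257 and 187 rescaled TPM in the controls and 317, 256 and 294 with nematodes, the highest log2 fold change of the group at 0.34 (95% interval -0.028 to 0.70). At the other end, a vacuolar protein sorting-associated protein (TRINITY_DN1685_c0_g1) had 149, 163 and 259 in controls and 142, 146 and 139 with nematodes. Its groups did not overlap, and the log2 fold change of -0.38 (adjusted p = 0.586) was -0.12 without control replicate 3, the highest library. The vacuolar sorting-associated protein TRINITY_DN1764_c0_g2 had 112, 122 and 110.5 in the controls and 101, 91.7 and 100.3 with nematodes, all below the controls (log2 fold change -0.23 ± 0.094 SE, limma adjusted p = 0.450). The most abundant of the group (TRINITY_DN3308_c0_g1) had 399, 427 and 274 in controls and 319, 324 and 333 with nematodes. In this feature control replicate 3 was the lowest of all 6 libraries, and in its absence the log2 fold change was -0.34 (adjusted p = 0.0336; 0.0336 to 0.994 over the alternatives), against -0.15 (adjusted p = 0.808). A vacuolar sorting ATPase (TRINITY_DN8053_c0_g1) had 279 ± 29.0 (SD, n = 3) in the controls and 278 ± 6.67 (SD, n = 3) with nematodes, and the 95% interval of its log2 fold change was -0.26 to 0.26. The vacuolar sorting receptor (TRINITY_DN14307_c0_g1), which picks cargo for the vacuole, had 111, 110.0 and 187 in controls and 128, 125 and 112 with nematodes, and Vps45 (TRINITY_DN8054_c1_g1), a partner of syntaxins at the endosome in yeast, had 75.9, 76.6 and 61.2 in controls and 74.7, 76.1 and 81.1 with nematodes. Both overlapped between groups, and without control replicate 3 the log2 fold change of the receptor went from -0.11 to 0.14.

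Other vacuolar proteins, 17 in all, had log2 fold changes of -0.14 to 0.31, and 12 were above 0. They included subunits of the vacuolar proton pump, which acidifies the vacuole and endosomes. The 16 kDa proteolipid subunit (TRINITY_DN3746_c0_g1), part of the ring that carries protons, had 423, 428 and 419.9 rescaled TPM in the controls and 495, 511 and 514 with nematodes. Replicates agreed closely in both groups, and the log2 fold change was 0.26 ± 0.088 SE (limma adjusted p = 0.350). Subunit f of that pump (TRINITY_DN3471_c0_g1) varied far more, with 489, 531 and 325 in the controls and 485, 355 and 438 with nematodes. Snf7 (TRINITY_DN7663_c0_g1), a subunit of the ESCRT-III complex that buds vesicles into endosomes, had 305, 337 and 418 in controls and 326, 319.9 and 307 with nematodes. Control replicate 3 was the highest library, and the log2 fold change was -0.14 with it and -0.0062 without it. The vacuolar transporter chaperones, which in yeast make polyphosphate, were all above 0: 0.31 for the unnumbered one (TRINITY_DN8482_c0_g1), 0.12 for chaperone 2 (TRINITY_DN1907_c1_g1) and 0.19 for chaperone 4 (TRINITY_DN2861_c0_g1) in log2 fold change. Chaperone 4 did not overlap, at 37.2, 38.3 and 39.4 rescaled TPM in the controls and 44.5, 41.1 and 46.2 with nematodes. Of the metal transporters, which store iron and calcium in the vacuole, the iron transporter TRINITY_DN14909_c0_g1 was at 0.12, Ccc1 (TRINITY_DN1985_c0_g1) at 0.16 (-0.054 without control replicate 3) and the calcium transporter TRINITY_DN7039_c0_g1 at 0.18 in log2 fold change, none with an adjusted p under 0.05 in limma.

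Autophagy features had the lowest median log2 fold change of the 12 role groups, -0.32, and the largest median SD among controls, 0.95 on the log2 scale. The autophagy regulatory protein TRINITY_DN768_c0_g1 had 46.8, 39.7 and 157 rescaled TPM in the controls and 34.0, 53.0 and 40.9 with nematodes. The most abundant autophagy protein (TRINITY_DN1722_c0_g3) had 81.8, 73.6 and 172 in controls and 86.2, 101 and 64.9 with nematodes. In both, control replicate 3 alone was high, at 3.64 and 2.22 times the mean of control replicates 1 and 2, and the other 5 libraries overlapped. Their log2 fold changes were -0.65 and -0.29 with that library and -0.031 and 0.095 without it. Atg11 (TRINITY_DN701_c1_g1), in yeast a scaffold of selective autophagy, had 26.4, 18.9 and 69.3 in the controls and 19.6, 28.0 and 17.4 with nematodes. Atg13 (TRINITY_DN1884_c0_g1), which in yeast starts autophagy on starvation, had 8.63, 6.41 and 27.6 in controls and 7.69, 12.3 and 7.95 with nematodes. These 2, named after their values were seen, had ratios of 3.06 and 3.66, and their log2 fold changes of -0.60 and -0.32 became -0.064 and 0.27 without control replicate 3. By contrast Atg27 (TRINITY_DN907_c0_g1), a membrane protein of autophagy in yeast, had 59.1, 61.8 and 74.9 in the controls and 62.4, 65.2 and 60.8 with nematodes, a ratio of 1.24. Apg9 (TRINITY_DN19910_c0_g1), the membrane carrier of autophagy known as Atg9 in yeast, had a ratio near that of Atg27, 1.24, with 26.0, 28.1 and 33.5 in controls and 32.8, 34.0 and 31.4 with nematodes. Another autophagy protein (TRINITY_DN2965_c0_g1) did not overlap between groups, at 24.98, 27.6 and 26.7 in the controls and 32.5, 31.9 and 30.4 with nematodes (log2 fold change 0.25 ± 0.10 SE, limma adjusted p = 0.456).

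Control replicate 3 was above 1.5 times the mean of the other 2 controls in 6 of 11 autophagy features, 19 of 93 members (20.4%) and 16.4% of the class, and below their mean by that factor in 5 members (5.38%) and 12.4% of the class. The median ratio was 2.22 for autophagy, 1.06 for all members and 1.01 for the class. Without that library, the median log2 fold change of the 9 autophagy features still tested was 0.060, with 6 of 9 above 0 in place of 3 of 11. Of the 11, 4 were fragments of 1 assembled cluster (TRINITY_DN7520_c0), at means of 1.55 to 3.29 rescaled TPM and 3 of them listed at 0 in at least 1 library, and they may share reads. ER features went the other way in control replicate 3: all 3 of ER entry and both of the ER group were at their lowest there among controls, with ratios of 0.789 to 0.923. Control replicate 3 was also the lowest control in 2038 of the 4568 class features tested. What set this library apart was not tested.

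**Figure D4:**
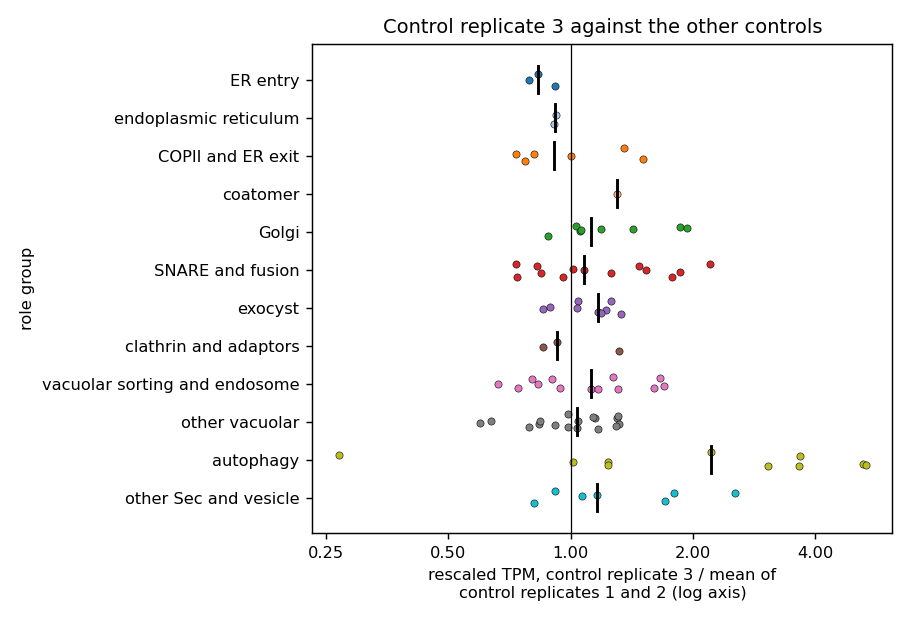
Rescaled TPM in control replicate 3 divided by the mean of control replicates 1 and 2 (x axis, log scale) for each member (dot) by role group (y axis), with the group median as a bar. Autophagy features reach 5.33 times in a fragment with a mean of 1.55 rescaled TPM, and 3.66 times among those with means above 10. ER entry and ER features lie between 0.79 and 0.92. Not drawn is 1 autophagy feature listed at 0 in control replicate 3.

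The remaining Sec and vesicle features were mixed: with the COPI subunit, 3 of 7 were above 0, and 5 of 7 without control replicate 3 (median -0.031 and 0.12). Sec14 (TRINITY_DN3907_c0_g2), a lipid transfer protein needed for export from the yeast Golgi, had 341, 382 and 294 rescaled TPM in the controls and 329.7, 317 and 343 with nematodes. Its groups overlapped, with a 95% interval of -0.32 to 0.26 for the log2 fold change. Vesicle-associated membrane protein 7 (TRINITY_DN2775_c0_g1), a SNARE of late endosomes in animals, had 128, 137 and 336 in controls and 157, 173 and 108 with nematodes. Control replicate 3 was high in this feature, 2.54 times the mean of the other 2 controls, and the log2 fold change was -0.34 with it and 0.12 without it. A vesicle-mediated transport protein (TRINITY_DN548_c0_g2) had 68.1, 62.5 and 69.5 in the controls and 60.8, 57.4 and 54.4 with nematodes, lower in every nematode library (log2 fold change -0.21 ± 0.097 SE, limma adjusted p = 0.507). A second feature of that description (TRINITY_DN6528_c0_g1) was at 0.12, and the 2 Sec7 domain proteins, of the family that loads Arf with GTP, were at -0.041 (TRINITY_DN465_c0_g1) and 0.056 (TRINITY_DN6316_c0_g1) in log2 fold change, or 0.22 and 0.32 without control replicate 3.

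Most members were expressed at a moderate and steady level. Their median over the 6 libraries was 90.5 rescaled TPM, against 72.04 for the class, and 62 of 93 lay above the class median. The range was 1.55 to 999. Within groups, the median SD of log2(rescaled TPM + 1) was 0.19 among controls and 0.099 among nematode libraries (class, 0.23 and 0.13), so the controls varied more in both sets. Together the members took 1.22%, 1.18% and 1.24% of the class TPM in the controls and 1.35%, 1.5% and 1.37% with nematodes, without overlap. This share depends on every other class feature and was not tested. The members' median rescaled TPM did overlap, at 82.9, 83.8 and 96.4 in the controls and 88.0, 95.1 and 89.9 with nematodes.

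In TPM as deposited, most members were lower with nematodes. Of 92 members that could be tested, 74 fell with nematodes (80.4%), 0 rose and 18 did not pass (limma on log2(TPM + 1), adjusted over 21817 features), against 78.8% lower and 0.471% higher among class features and 25.5% and 61.4% in the whole table. The median log2 fold change was -0.72 for the members and -0.82 for the class. Sec62 had 89.2 ± 3.52 TPM (SD, n = 3) in controls and 74.8 ± 18.4 with nematodes (log2 fold change -0.28, adjusted p = 0.250). The SNARE protein TRINITY_DN2531_c0_g1 fell from 141 ± 21.2 to 59.9 ± 8.51 TPM (log2 fold change -1.22, adjusted p = 0.000732). The class share of TPM fell beside these values, and deposited TPM cannot tell a fall of a gene from that fall of the class. Without nematode replicate 3 the number of members lower in deposited TPM was 42, and without control replicate 1 it was 48.

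A further 33 class features of the same pathway, outside the words of the rule, were taken from a list of names (Rab, Ypt and Arf proteins, adaptins, sorting nexins, dynamins, ESCRT subunits, ER glycosylation and folding enzymes and others). None passed the limma test in the rescaled fit, against 0.613% higher and 0.0438% lower in the class. At an unadjusted p under 0.05, 3 were higher (9.09%) and 0 lower, against 7.07% and 3.74% of the class. Their median log2 fold change was 0.060, with 20 above 0. Libraries of the groups did not overlap in 4 that were higher with nematodes and 4 that were lower (12.1% each). The class gave 10.5% and 7.79%, and the 93 members 21.5% and 4.30%. The 3 named here were chosen after their values were seen, as the highest 2 and the lowest. An ADP-ribosylation factor (TRINITY_DN5781_c0_g1), of the family that recruits vesicle coats, had 46.3, 49.8 and 52.7 rescaled TPM in the controls and 78.2, 89.8 and 73.2 with nematodes (log2 fold change 0.68 ± 0.11 SE, limma adjusted p = 0.0667). An oligosaccharyl transferase subunit (TRINITY_DN895_c0_g1), of the ER enzyme that attaches N-glycans, had 56.5, 61.1 and 62.9 in controls and 77.7, 85.1 and 80.4 with nematodes (log2 fold change 0.42 ± 0.094 SE, limma adjusted p = 0.149). Both were higher in all nematode libraries than in any control. Sorting nexin-3 (TRINITY_DN3532_c0_g3), an endosome recycling protein, had 337, 365 and 535 in the controls and 304, 325 and 303 with nematodes (log2 fold change -0.38 ± 0.18 SE, limma adjusted p = 0.531).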

How the data were processed

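The authors deposited 1 table of TPM for 6 libraries and 26694 features with best-hit descriptions; each library sums to about 1e+06 over all features. The sources used here do not name the assembler, aligner, quantifier or annotation release. Feature names have the Trinity form. TPM keeps no depth, so the reads behind each value are unknown and no counting interval is given. The authors' 2 group-mean columns were not used. No sequence or genome was used.

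Class features were divided, in each library, by the median ratio to their geometric mean over libraries, with class totals set to average 1e+06. Features with at least 1 rescaled TPM in at least 3 of 6 libraries were fitted as log2(value + 1), which understates changes at low values, with limma 3.58.1 in R 4.3.3 (lmFit, eBayes with a mean-variance trend), nematode minus control, no covariate, Benjamini-Hochberg threshold 0.05. An exact permutation of 3 against 3 cannot go below 0.1. The fit was tested on simulated data with the same noise in all 6 libraries. That test did not cover an outlying library such as control replicate 3. Deposited TPM were fitted likewise over all features. Intervals are 95% intervals from limma.

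Members went to the first of 12 role groups whose words their description held. Named were members past the threshold, the 3 most abundant per role group, the 5 largest differences each way without overlap and above 10 rescaled TPM, the 5 smallest p each way and the most abundant member. Members named beyond these (COG and COPII coat subunits, v-SNAREs and other SNARE features, vacuolar transporters, Vps45, the sorting receptor, Sec7 proteins and single autophagy features) were chosen after their values were seen. Members and lists were chosen with earlier results of these data known. Alternatives were pseudocounts of 0.1 and 5, no filter and a filter of 5, scaling by a trimmed mean of M values (TMM, 30% and 5% trims), by the class total or by quantiles, a replicate block, robust eBayes (statmod 1.5.0), no trend, and omission of each library, with the filter applied again and with tested features kept.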

Additional observations from a re-analysis of the deposited data

Results flagged for a closer look

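Outside the class, the same words matched 71 features whose best hit lay in other genera, and 56 of these (78.9%) reached 1 TPM in every nematode library and in no control. The same pattern held for 65.9% of all 8847 features with a description outside the class, so it was common there, and the difference between these shares was not tested. All 71 summed to 835, 847 and 686 TPM in control replicates 1 to 3 and to 3953, 3046 and 3211 TPM in nematode replicates 1 to 3. In deposited TPM, 57 of the 62 tested rose and 5 fell (limma). The whole table, which includes the class, gave 61.4% and 25.5%. The 56 passed the filter through the nematode libraries alone, so their rise was fixed by that choice and is not a test result. The 56, low in the controls by their choice, are the signal outside the main comparison. By role they held 11 of the 12 ER entry features found outside the class and 8 of 11 other vacuolar features. They held 7 of 8 vacuolar sorting and endosome, 6 of 8 SNARE and fusion, 6 of 6 exocyst and 5 of 5 Golgi features. COPII had 3 of 3, clathrin and adaptors 2 of 2, and other Sec and vesicle 4 of 5. Lower shares were coatomer 2 of 4, ER 2 of 5 and autophagy 0 of 2. A Sec61 subunit beta, part of the ER channel, with a best hit in Mortierella (TRINITY_DN10264_c0_g1) was at 0 in the 3 controls, whereas nematode replicates 1 to 3 held 748, 518 and 582 TPM. A COPII-coated vesicle protein with a best hit in Phaffia (TRINITY_DN7034_c0_g1) held 165, 111 and 120.2 TPM in nematode replicates 1 to 3, against 0.29, 0 and 0 in controls. The organism these transcripts came from was not tested. Groups of 3 libraries were too small for a test of single outlying libraries.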

How the results depend on the processing

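No member passed under the other pseudocounts, filters, TMM and quantile scaling, replicate block, robust and no-trend fits; scaling by the class total called 1 (Sec62), with 48 class features called in place of 30 and a member median of 0.21 in place of 0.071, above its spread of 0.066 between replicates. Omission of 1 library gave 0 to 10 members called, 7 to 630 class features called (629 without control replicate 3 with the filter applied again, 630 with tested features kept, and 14, 15, 8, 16 and 16 with tested features kept and without control replicates 1 and 2 and nematode replicates 1, 2 and 3), a member median of 0.030 to 0.14 (0.034 without control replicate 2) and 42 to 74 members lower in deposited TPM; the highest counts of rescaled calls were those without control replicate 3, and the cause was not tested. With the replicate number as a block, 12 class features and 0 members were called. Same-numbered libraries had correlations of 0.15, -0.43 and -0.28 in their deviations from the group means. With 3 libraries per group, these values can neither show nor exclude a pairing by number. The 37 members named by the stated rules, which leave out those chosen after their values were seen, were followed under 22 alternatives. Of their values, 795 stayed on their side of the threshold and 19 newly passed it, 1 with the class total and 18 without control replicate 3. Those 18 were 9 members, each passing with the filter applied again and with tested features kept. Among the 37, 9 members changed sign in some alternative without passing the threshold. Low values limit the 4 autophagy fragments below 10 rescaled TPM.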
